A study of Mus musculus with 4 samples.

Results

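The aryl hydrocarbon receptor (AHR) pathway was examined in mouse T helper 17 (Th17) cells through 7 genes out of the 50600 in the deposited tables. They were chosen by name for their place in the pathway. They are the receptor Ahr, its dimerisation partner Arnt, the repressor Ahrr and 4 classical target genes, Cyp1a1, Cyp1b1, Tiparp and Nqo1. All 7 names matched 1 row each, and all 7 had enough counts to be tested. RNA was sequenced from 4 libraries of primary Th17 cells of the C57BL/6NJ strain. The libraries form 1 group, biological replicates 1 to 4, and no library was treated or served as a control. A CD4 T cell differentiation protocol is linked in the labels, and each file header states 72 hr. Whether the medium held an AHR ligand is not given in the sources used here. A donor identifier is shared by all 4 biosamples, with the sex recorded as not collected and the age as unknown. The labels do not state whether separate animals gave the replicates, so every p-value measures only the spread between these samples.

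AHR is a ligand-activated transcription factor of the bHLH-PAS family that waits in the cytosol in a complex with HSP90 and other chaperones. Once a ligand such as a tryptophan metabolite, a dietary indole or a dioxin binds, AHR enters the nucleus, pairs with ARNT and binds the xenobiotic response element, whose core letters are GCGTG. Target genes include enzymes that clear the ligand and a repressor, AHRR, that competes with AHR, so the pathway restrains itself. Among helper T cells AHR is known above all from Th17 cells, where it is linked to the production of interleukin 22.

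Total counts ranged from 33123029 to 37746767 per library, and 98.8% to 98.9% of them fell in protein-coding genes. Replicate 2 stood apart from the rest. A chi-square comparison of counts gave 44.6 to 49.4 per degree of freedom for pairs with replicate 2, against 4.44 to 6.61 among replicates 1, 3 and 4. Against the other 3 libraries, 3907 of 17337 tested genes passed in replicate 2 (edgeR quasi-likelihood fit, p under 0.05 after Benjamini-Hochberg adjustment). The levels of Tiparp and Cyp1a1 are therefore also given without replicate 2. Most other means, ratios and distances below are given over all 4 libraries only. All 8 genes of a T and Th17 cell marker list lay above 1 TPM (a measure of transcript abundance that is scaled by gene length and by library size). Their summed level was 6745 to 7387 TPM in replicates 1, 3 and 4 and 2738 TPM in replicate 2. Most of the drop lay in the effector genes Il17a (505 against 2155 to 2543 TPM), Il17f (578 against 2619 to 2909 TPM) and Ccr6. Rora, on the same list, was lower as well, at 19.2 against 30.1 to 31.6 TPM. The T cell genes did not fall past the test: Cd4 stood at 486 against 487 to 516 TPM, and Cd3g passed as higher by 0.16.

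All 7 genes had counts in every library, and their mean levels spanned from under 1 TPM to over 30 TPM. A fit of each gene's level against 1 TPM placed 6 of the 7 above that level and 1, Ahrr, below it. Over all tested genes, 70.6% lay above 1 TPM and 16.4% below it. Arnt and Tiparp were the most abundant of the 7, Ahr and Cyp1b1 formed a middle pair, and Nqo1, Cyp1a1 and Ahrr were low. In bulk samples, fewer cells that express a gene and less RNA of it per cell cannot be told apart.

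**Figure D1:**
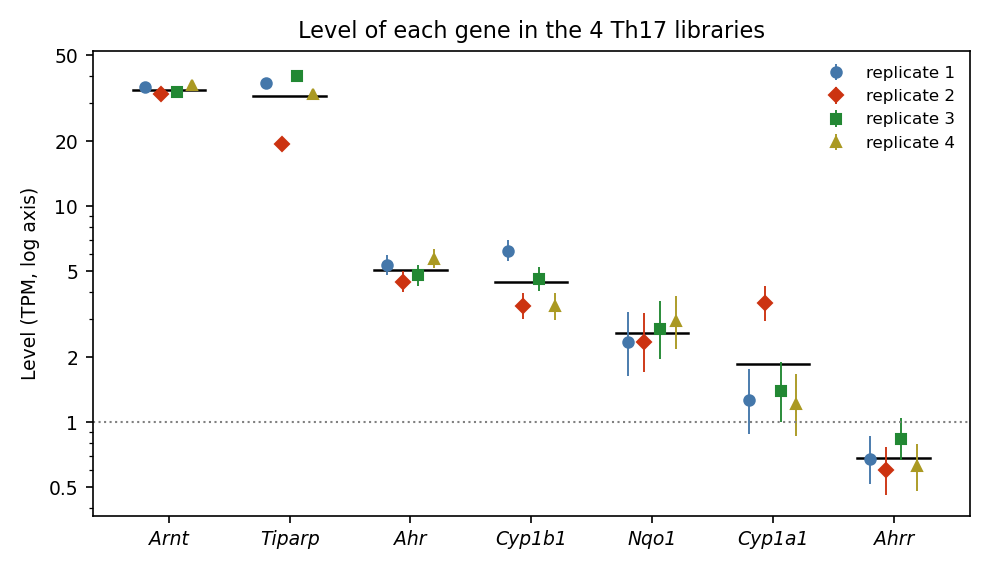
Level of each of the 7 AHR pathway genes in TPM on a log axis, 1 point per library, with bars for the exact 95% Poisson counting interval, a horizontal line at the mean of the 4 libraries and a dotted line at 1 TPM. Points of Arnt lie within 33.1 to 36.4 TPM, while the replicate 2 point of Tiparp lies below the other 3 and that of Cyp1a1 above them.

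Ahr itself, the receptor (ENSMUSG00000019256.17, protein-coding, mm10 chromosome 12, bases 35497974 to 35535038, minus strand), stood at 5.36, 4.46, 4.79 and 5.71 TPM in replicates 1, 2, 3 and 4. These values rest on 327, 315, 310 and 394 counts. The mean was 5.08 ± 0.559 TPM (SD, n = 4), with the lowest value in replicate 2 and the highest in replicate 4. The exact 95% Poisson interval of replicate 2 (3.98 to 4.99 TPM) overlaps that of replicate 3 (4.27 to 5.35 TPM) and lies below that of replicate 4 (5.16 to 6.30 TPM). These intervals cover counting error only. The receptor gene was above 1 TPM by 2.34 ± 0.07 on the log2 scale (SE, adjusted p = 1.1e-08 by edgeR's quasi-likelihood test). Its mean exceeded that of 41.2% of tested genes.

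Arnt, which encodes the partner that AHR needs to bind DNA and that also pairs with the hypoxia factors (ENSMUSG00000015522.18, chromosome 3, bases 95434388 to 95497240, plus strand), was the most even of the 7. It stood at 35.5, 33.1, 33.8 and 36.4 TPM in replicates 1 to 4, with a mean of 34.7 ± 1.52 TPM and a coefficient of variation of 4.38%. No library stood away from the others. The ratio of Arnt to Ahr, both in TPM, was 6.62, 7.40, 7.05 and 6.37 in the 4 libraries, a mean of 6.86 ± 0.459. Partner transcripts therefore outnumbered receptor transcripts in every library. Arnt has 11 annotated transcripts, and its level depends on which exons are taken as its length, as given below.

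Ahrr, the repressor that competes with AHR for ARNT and for DNA (ENSMUSG00000021575.15, chromosome 13, bases 74211118 to 74292331, minus strand), was the least abundant member. It stood at 0.671, 0.600, 0.837 and 0.623 TPM in replicates 1 to 4, on 62, 64, 82 and 65 counts. The mean was 0.683 ± 0.107 TPM, and the counting intervals of all 4 libraries overlap. Its level lay below 1 TPM by the fit (log2 level −0.55 ± 0.15, adjusted p = 0.0098, edgeR quasi-likelihood test). That call depends on gene length, because the summed exons of Ahrr cover 9323 bases and its longest transcript 4754. With the longest transcript as the length, the log2 level was −0.04 and the call was lost (adjusted p = 0.819, within a range of 0.00604 to 0.819 over 8 alternatives). Receptor exceeded repressor in every library, with Ahr to Ahrr ratios of 7.98, 7.45, 5.72 and 9.17.

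Tiparp encodes an ADP-ribosyltransferase, a target of AHR that in turn acts against the receptor (ENSMUSG00000034640.9, chromosome 3, bases 65528410 to 65555518, plus strand). It was the most abundant of the 4 target genes, at 37.3, 19.4, 40.0 and 33.2 TPM in replicates 1 to 4, on 1612, 968, 1833 and 1619 counts. Replicate 2 was the lowest library and its counting interval (18.2 to 20.7 TPM) lies apart from those of the other 3, of which the lowest bound was 31.6 TPM. The mean was 32.5 ± 9.17 TPM over 4 libraries and 36.9 ± 3.45 TPM over the other 3. Of its exonic bases, 223 overlap a gene on the opposite strand, 4931440P22Rik; the counting used strand, which keeps the 2 apart.

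Cyp1a1 encodes the cytochrome P450 that is the most widely used readout of AHR activity (ENSMUSG00000032315.6, chromosome 9, bases 57687928 to 57703824, plus strand). It stood at 1.27, 3.57, 1.4 and 1.22 TPM in replicates 1 to 4, on 35, 114, 41 and 38 counts. Replicate 2 held as many Cyp1a1 counts as the other 3 libraries together, and its counting interval (2.95 to 4.29 TPM) lies above the highest upper bound of the others (1.90 TPM). Replicates 1, 3 and 4 were close together, with a mean of 1.30 ± 0.0942 TPM (SD, n = 3). Over all 4 libraries the mean was 1.86 ± 1.14 TPM and the level lay above 1 TPM (log2 level 0.90 ± 0.28, adjusted p = 0.0187, edgeR quasi-likelihood test). Without replicate 2 that call was lost (log2 level 0.37, adjusted p = 0.0845). It was also lost with the longest transcript as the length (log2 level 0.50, adjusted p = 0.142, within a range of 0.0117 to 0.142 over 8 alternatives).

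Cyp1b1, another cytochrome P450 of the AHR response (ENSMUSG00000024087.3, chromosome 17, bases 79706953 to 79715041, minus strand), stood at 6.22, 3.46, 4.62 and 3.43 TPM, on 316, 203, 249 and 197 counts. Here the highest library was replicate 1, and replicates 2 and 4 were lowest and nearly equal. The mean was 4.43 ± 1.31 TPM, and the level was above 1 TPM by 2.15 ± 0.13 on the log2 scale (adjusted p = 1.9e-06). Nqo1, a quinone reductase under the control of both AHR and the oxidative stress factor NRF2 (ENSMUSG00000003849.8, chromosome 8, bases 107388225 to 107403206, minus strand), stood at 2.34, 2.36, 2.70 and 2.93 TPM. It rested on only 36 to 51 counts per library, and its counting intervals all overlap. The mean was 2.58 ± 0.285 TPM and the log2 level 1.37 ± 0.14 (adjusted p = 4.6e-05).

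In order of mean level the 7 genes ran Arnt, Tiparp, Ahr, Cyp1b1, Nqo1, Cyp1a1 and Ahrr. Of the 6 pairs of neighbours in that order, 3 kept their order in every library and had ranges that did not overlap. These were Tiparp over Ahr (2.61 ± 0.40 on the log2(TPM + 0.1) scale), Cyp1b1 over Nqo1 (0.72 ± 0.49) and Cyp1a1 over Ahrr (1.19 ± 0.80). An exact two-sided sign-flip test over 4 libraries cannot go below p = 0.125, which each of these 3 pairs reached (adjusted p = 0.25 over the 6 pairs). The other 3 pairs did not separate beyond their spread. Arnt over Tiparp was 0.14 ± 0.44 with Arnt higher in 2 of 4 libraries, Ahr over Cyp1b1 was 0.23 ± 0.40 (3 of 4), and Nqo1 over Cyp1a1 was 0.59 ± 0.79 (3 of 4). Without replicate 2 the first of these turned to −0.06, and with the longest transcript as the length it was 0.97 and Cyp1a1 over Ahrr was 0.35.

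The stretch upstream of each member's start was read for the AHR core motif, GCGTG, which AHR binds together with ARNT. RefSeq promoters on GRCm38.p6, the assembly also called mm10, were found for 6 of the 7 genes; Ahr was not matched. The 250 bases before each RefSeq start were searched on both strands. Those of Cyp1a1 (chr9:57697363-57697612, plus strand), Tiparp (chr3:65528197-65528446, plus strand) and Ahrr (chr13:74292332-74292581, minus strand) are shown 5′ to 3′ in lower case. Capitals mark GCGTG, or CACGC where the motif lies on the opposite strand.
Cyp1a1: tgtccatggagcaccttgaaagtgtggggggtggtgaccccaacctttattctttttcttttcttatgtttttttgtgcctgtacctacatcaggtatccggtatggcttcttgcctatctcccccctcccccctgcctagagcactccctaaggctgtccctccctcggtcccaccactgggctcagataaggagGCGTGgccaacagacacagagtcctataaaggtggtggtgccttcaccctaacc
Tiparp: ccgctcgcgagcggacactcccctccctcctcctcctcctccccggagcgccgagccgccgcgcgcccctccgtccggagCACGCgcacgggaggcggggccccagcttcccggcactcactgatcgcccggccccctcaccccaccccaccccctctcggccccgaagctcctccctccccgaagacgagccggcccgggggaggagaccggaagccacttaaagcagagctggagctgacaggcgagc
Ahrr: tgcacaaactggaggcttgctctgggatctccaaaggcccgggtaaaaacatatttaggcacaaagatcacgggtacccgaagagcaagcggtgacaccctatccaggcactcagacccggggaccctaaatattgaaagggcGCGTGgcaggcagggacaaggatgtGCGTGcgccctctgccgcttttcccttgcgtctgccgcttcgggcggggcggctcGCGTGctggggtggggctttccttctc

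Cyp1a1 held 1 match, which began 54 bases before its start. That start lies 9685 bases downstream of the first annotated exon base in the count tables. Tiparp held 1 match on the opposite strand, 170 bases before its start, and Ahrr held 3, at 107, 82 and 27 bases, 1 of which extends to TNGCGTG. Arnt and Cyp1b1 held 1 match each and Nqo1 none. A match is common, since 28.2% of 32851 RefSeq promoters of the same length held at least 1 GCGTG, 8.63% at least 2 and 2.77% at least 3. TNGCGTG, which contains GCGTG, was present in 4.10% of promoters. TGANNNNGC, the core of the antioxidant response element bound by NRF2, was present in 35.2% of promoters, in those of Arnt, Ahrr and Tiparp among the members, and had no match in that of Nqo1. These are letters in a window and not measured sites, and sequence farther upstream was not searched. Cyp1a1 and Tiparp each held 1 GCGTG, and whether these matches have a part in their levels was not tested.

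**Figure D2:**
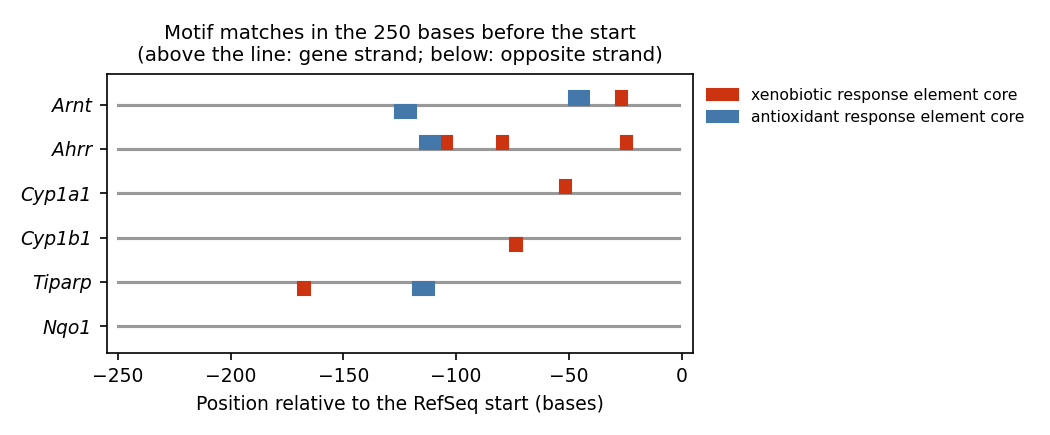
Positions of motif matches in the 250 bases before the RefSeq start of 6 members, with the distance from the start in bases on the x axis and 1 row per gene; boxes above a line lie on the gene's strand and boxes below it on the opposite strand, red for the AHR core motif and blue for the antioxidant response element core. Ahrr shows 3 matches to the AHR core motif, Arnt, Cyp1a1, Cyp1b1 and Tiparp 1 each and Nqo1 none.

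To see how the pathway varied between libraries, each replicate was set against the other 3. This compares libraries and not conditions, and the lone library is assumed to vary like the others. For replicates 1, 3 and 4, the libraries compared against include replicate 2, which widens the spread. The SE of the Tiparp change in replicate 1, for example, was 0.39, and 0.08 without replicate 2. An absence of calls there therefore does not show that the libraries are alike, and more genes passed without replicate 2, as given at the end. In replicates 1, 3 and 4 no member passed (edgeR quasi-likelihood test), and the background was 0% of genes called in each. The smallest unadjusted p was for Cyp1b1 in replicate 1, where the log2 change was 0.68 ± 0.24 (SE, unadjusted p = 0.0353, adjusted p = 1.00); it was the 1 member under 0.05 before adjustment in these 3 comparisons, and DESeq2 called 0 members in each. Without replicate 2 in the comparison, Cyp1b1 passed in replicate 1 (0.64, adjusted p = 0.0415, within a range of 0.0415 to 1.00 over 8 alternatives).

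In replicate 2, 2 of the 7 members passed, 1 higher and 1 lower, and DESeq2 called 2 as well. Over all genes, 11.7% were called higher and 10.9% lower in this library, so a count of 1 in each direction is near the background. Cyp1a1 was higher by 1.52 ± 0.31 on the log2 scale (adjusted p = 0.000856), 2.76-fold in TPM over the mean of the other 3 libraries. Tiparp fell by 0.86 ± 0.10 (adjusted p = 3.3e-06), so that the mean of the other 3 libraries was 1.90-fold that of replicate 2. Both calls were kept under every alternative tried. The ratio of Tiparp to Cyp1a1, both AHR targets, was 29.5, 28.6 and 27.2 in replicates 1, 3 and 4 and 5.43 in replicate 2.

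**Figure D3:**
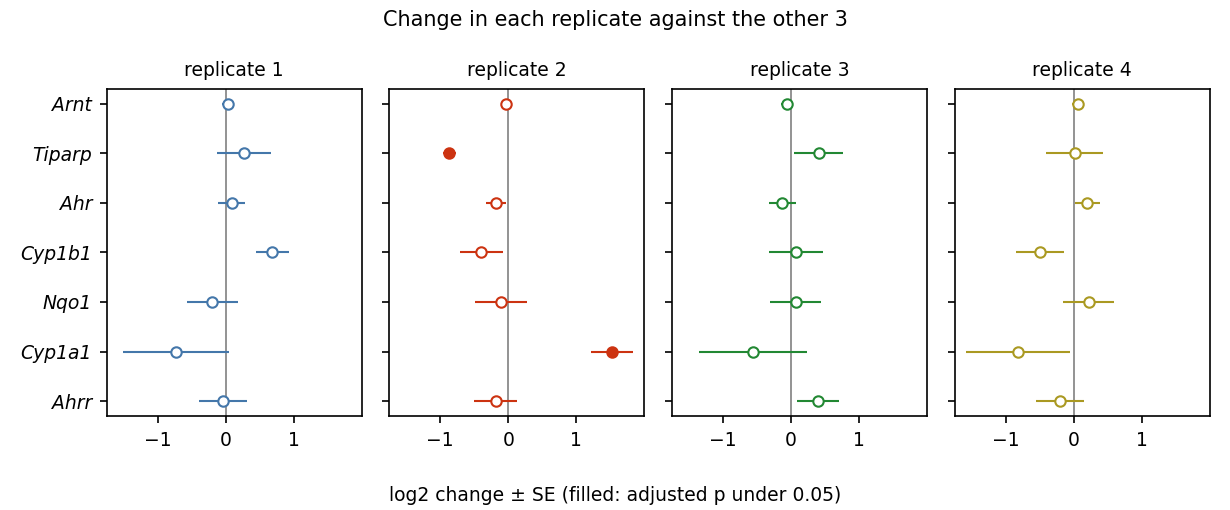
Log2 change of each member in each replicate against the other 3, with bars for the standard error and filled points for an adjusted p under 0.05. Filled points appear in replicate 2 alone, at 1.52 for Cyp1a1 and −0.86 for Tiparp.

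The other 5 members did not pass in replicate 2. Ahr differed by −0.18 ± 0.14 (adjusted p = 0.422), Arnt by −0.03 ± 0.05 (0.768), Ahrr by −0.18 ± 0.32 (0.748), Nqo1 by −0.11 ± 0.38 (0.888) and Cyp1b1 by −0.39 ± 0.32 (0.478). Counts set the precision here: the counting interval of the replicate 2 to others ratio ran from 0.923 to 1.00 for Arnt, from 0.760 to 0.982 for Ahr, from 0.643 to 0.882 for Cyp1b1 and from 0.625 to 1.29 for Nqo1. For Ahr and Cyp1b1 this interval lies below 1, while the test over libraries did not call them. That test adds the spread between libraries, and it scales them by TMM, whereas the counting ratio is scaled by total counts. With total counts in place of TMM, the fitted log2 change of Ahr was −0.21. Cyp1b1 passed when replicate 4 was left out (−0.59, adjusted p = 0.0101, within a range of 0.0101 to 0.624 over 8 alternatives). Leaving out replicate 1, the highest library for this gene, moved the change to −0.15, and it did not pass.

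**Figure D4:**
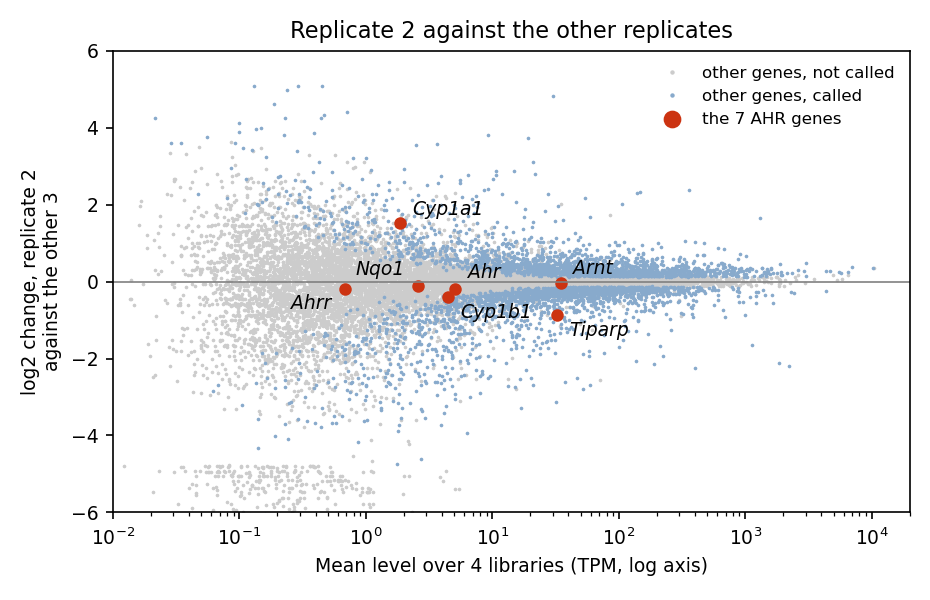
Log2 change in replicate 2 against the other 3 libraries plotted against mean TPM on a log axis, with tested genes that did not pass in grey, genes past the test in blue and the 7 members in red; 69 genes lie outside the axes. The band at the lower edge holds mostly genes with 0 counts in replicate 2, whose fitted changes depend on the prior count. Cyp1a1 sits above and Tiparp below the bulk of genes, and Arnt sits near 0.

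Genes listed as markers of other cell types were mixed in level. Bulk samples do not show which cells, Th17 cells included, held their RNA. The part any other cell type has in the replicate 2 values was not tested. Most of the listed genes had means under 10 TPM, but Ighm (59.2 to 69.8 TPM), Nkg7 (28.7 to 65.3 TPM), Il7r (26.3 to 33.5 TPM) and Pecam1 (16.6 to 21.1 TPM) were higher. These 4 were named after their values were seen, as were Flt3, Adgre1, Dcn, Pdgfrb, Lrrc32 and Ikzf2. Of the gamma-delta and innate lymphoid list, 4 of 8 genes lay above 1 TPM, beside 70.6% over all tested genes. Its summed level was 65.9 TPM in replicate 2 and 90.9 to 101 TPM in the others. That sum followed Nkg7, while Sox13 and Kit passed as higher by 1.02 and 1.35, and the list's median log2 change was 0.73. Zbtb16 and Ncr1 had 0 counts in every library. Of 10 myeloid and dendritic markers 3 lay above 1 TPM, with Lyz2 at 0 counts in every library, and their sum was 35.8 TPM in replicate 2 and 22.3 to 24.2 TPM in the others. Flt3, a receptor gene of progenitor and dendritic cells, had 11.5 TPM in replicate 2 and 0.848 to 1.29 TPM elsewhere. The myeloid and dendritic sum followed Flt3, while Adgre1 fell by 0.54 on the log2 scale, to 5.73 against 8.42 to 8.90 TPM. That list had a median log2 change of 0.40. Among stromal and endothelial markers 3 of 8 lay above 1 TPM, with Col3a1 and Cdh5 at 0. Their sum was 32.2 against 23.6 to 26.7 TPM, though the median log2 change was −0.19. That sum followed Dcn (9.35 against 3.77 to 4.11 TPM) and Pecam1, higher by 0.29 on the log2 scale, while Pdgfrb fell by 1.26. B cell markers (1 of 6 above 1 TPM) summed to 70.0 against 61.4 to 71.8 TPM. Most of that sum was Ighm, and the list's median log2 change was 0.49. Epithelial and keratinocyte markers (1 of 7, with Krt8, Krt14 and Cdh1 at 0) summed to 4.94 against 4.45 to 5.39 TPM, with a median log2 change of 0.21. For regulatory T cells 2 of 4 markers lay above 1 TPM, and the sum was 18.6 against 15.4 to 15.7 TPM. That rise followed Lrrc32 (15.9 against 6.74 to 7.28 TPM), while Ikzf2 and Il10 fell by 1.49 and 2.23 on the log2 scale. The regulatory list's median log2 change was −0.49.

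The rest of the AHR machinery was read from lists drawn up for this pathway. Among the 5 genes of the cytosolic chaperone complex, which holds the unbound receptor, 4 lay above 1 TPM, beside 70.6% over all genes. Hsp90ab1 and Hsp90aa1, the HSP90 chaperones, stood at 5359 ± 93.6 and 1102 ± 64.2 TPM, and the co-chaperone gene Ptges3 at 208 ± 4.82 TPM. In replicate 2 the median log2 change of the list was 0.05, against −0.01 over all genes.

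Among 12 coactivators and corepressors, all lay above 1 TPM, beside 70.6% over all tested genes. Smarca4, a chromatin remodelling ATPase gene, led at 144 ± 3.20 TPM. The corepressor gene Ncor1 followed at 82.1 ± 0.395 TPM and the Mediator gene Med12 at 70.7 ± 1.99 TPM. In replicate 2, 2 passed as higher (Rb1 by 0.23 and Ncoa3 by 0.22) and 2 as lower (Nrip1 fell by 0.30 and Ncoa1 fell by 0.22). The Ncoa1 call was lost with DESeq2 (adjusted p = 0.0610) and without replicate 4 (−0.17, adjusted p = 0.0933, the highest over 8 alternatives). Over all genes, 11.7% were called higher and 10.9% lower in replicate 2. The median log2 change of the coregulator list was 0.04. All 5 genes of the ubiquitin ligase group, through which AHR is linked to protein turnover, lay above 1 TPM. Ddb1 led at 777 ± 14.7 TPM. Stub1 and Tbl3 were higher in replicate 2, by 0.31 and 0.22, with a median of 0.01 over the list. The largest of the changes that passed in these 3 lists was that of Stub1.

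Relatives of AHR and ARNT form the bHLH-PAS family. Of 13 genes, 9 were tested and 7 lay above 1 TPM, beside 70.6% over all tested genes. Npas3 and Sim1 had 0 counts in every library. Hif1a, the hypoxia factor that also pairs with ARNT, stood at 295, 423, 290 and 295 TPM in replicates 1 to 4 and was higher in replicate 2 by 0.59 ± 0.04 (adjusted p = 1.5e-09). The Hif1a to Arnt ratio was accordingly 12.8 in replicate 2 and 8.11 to 8.59 in the others. Arnt2, a close relative of Arnt, was near the limit of detection in replicates 1, 3 and 4, with 5, 6 and 9 counts, and had 143 counts in replicate 2. That made it 1.62 TPM in replicate 2 against 0.0657 to 0.105 TPM elsewhere, a log2 change of 4.34 ± 0.39 (adjusted p = 3.8e-08), with Arnt still 20.3 times as abundant in that library. The clock genes Arntl and Clock fell by 0.50 and 0.35, and Npas4, an activity-induced factor, fell by 1.57. In all, 2 of the 9 tested genes were higher and 3 lower, beside 11.7% and 10.9% over all genes, and the median was −0.09.

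**Figure D5:**
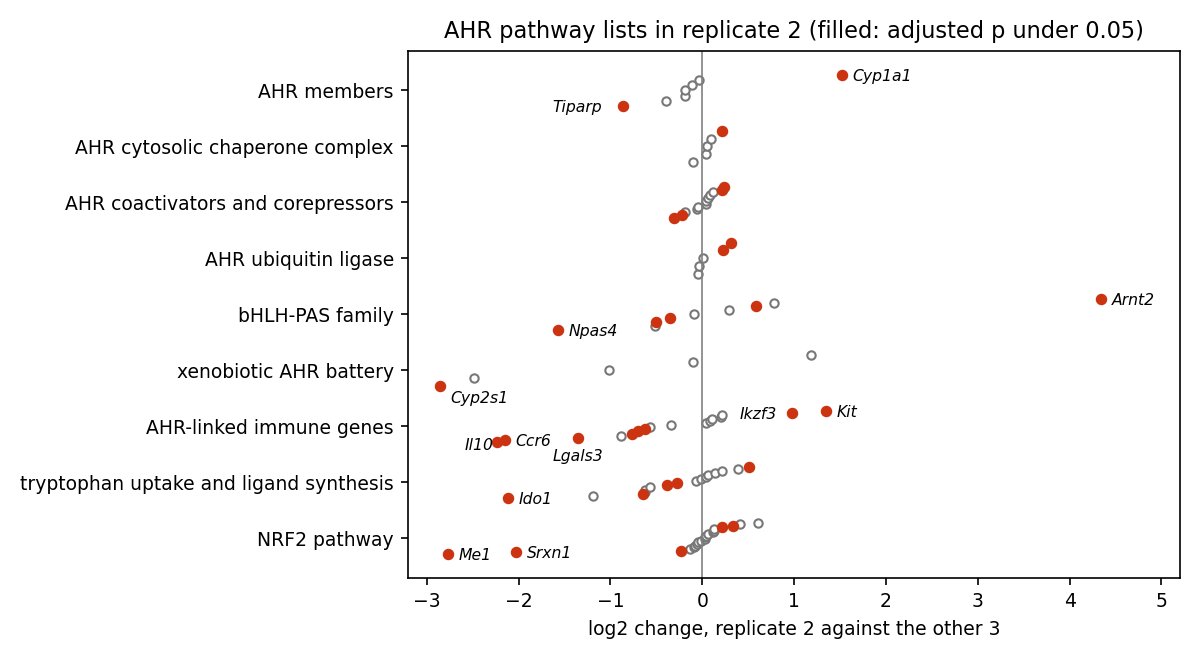
Log2 change in replicate 2 against the other 3 libraries for every tested gene of the members and of 8 AHR pathway lists, 1 row per list, with filled points for an adjusted p under 0.05. Changes in the chaperone, coregulator and ubiquitin ligase rows stay near 0, while Arnt2 lies at 4.34 and Cyp2s1 at −2.85.

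Most of the other xenobiotic genes of the AHR battery were scarcely present. Of 12, 5 were tested and 2 lay above 1 TPM, beside 70.6% over all tested genes. Gsta1, Gsta2, Ugt1a1, Ugt1a2 and Cyp2a5 had 0 counts in every library. A count of 0 allows up to 0.0795 to 0.0906 CPM (counts scaled to a common library total), depending on the library, from counting error alone. Ugt1a7c, a glucuronosyltransferase gene, had 2.63 ± 0.166 TPM, though the genes of the Ugt1a cluster share exons and their reads can be split or lost. Cyp2s1, also a cytochrome P450 gene, stood at 3.29, 0.424, 2.66 and 3.67 TPM and was lower in replicate 2 by a log2 change of −2.85 ± 0.30 (adjusted p = 4.7e-07). It was the 1 gene of this list that passed, beside 10.9% called lower over all genes, and it moved opposite to Cyp1a1. The list's median was −1.02 over 5 tested genes. That median is the value of 1 gene with 7 counts in replicate 2 and an SE of 0.80, so it says little about the list.

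Among 16 immune genes linked to AHR in T cells, all were tested and 11 lay above 1 TPM, near the 70.6% over all genes. Il22, the cytokine gene tied to AHR in Th17 cells, stood at 385, 183, 374 and 304 TPM in replicates 1 to 4. Replicate 2 was the lowest library, but the change of −0.89 ± 0.22 did not pass (adjusted p = 0.142, edgeR quasi-likelihood test); DESeq2 called it (−0.89), and so did fits without replicate 1 (−0.82) or replicate 4 (−0.99). Il21, a cytokine gene, was even at 91.2 ± 5.18 TPM. In replicate 2, 6 genes of the list passed as lower and 2 as higher, beside 10.9% and 11.7% over all genes, with a median of −0.46. The chemokine receptor gene Ccr6 fell by 2.14 ± 0.06, the cytokine gene Il10 fell by 2.23 ± 0.64 on 7 counts, the galectin gene Lgals3 fell by 1.36 ± 0.12 and the hormone gene Stc2 fell by 0.76 ± 0.13. Kit, a receptor tyrosine kinase gene, was higher by 1.35 ± 0.18, and Ikzf3, a zinc finger factor, by 0.98 ± 0.29. The Ikzf3 call was lost with DESeq2 (adjusted p = 0.104, the highest over 8 alternatives).

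Ligand supply was followed through 18 genes of tryptophan uptake and breakdown. Of these, 16 were tested and 11 lay above 1 TPM, near the 70.6% over all tested genes. The amino acid transporter genes Slc1a5, Slc7a5 and Slc3a2 were the highest, at 304 ± 16.2, 277 ± 9.91 and 213 ± 23.4 TPM. Ido1, which opens the kynurenine route to AHR ligands, stood at 9.13, 1.77, 6.00 and 8.96 TPM and was lower in replicate 2 by a log2 change of −2.12 ± 0.31 (adjusted p = 2.6e-05). Il4i1, an amino acid oxidase gene that also yields AHR ligands, moved the other way, higher by 0.51 ± 0.14 at 9.76 TPM against 6.53 to 8.25 TPM. Tdo2, the liver counterpart of Ido1, had 0 counts in every library, as did Aadat. In all, 1 gene passed as higher and 4 as lower in replicate 2, beside 11.7% and 10.9% over all genes, the others being Afmid, which fell by 0.64, Slc36a4, which fell by 0.39, and Slc3a2, which fell by 0.27. The calls of Il4i1 and Afmid were lost with DESeq2 (adjusted p = 0.0748 and 0.143, the highest over 8 alternatives each), and that of Afmid also without replicate 3 (−0.57, adjusted p = 0.0830). The median was −0.17.

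The NRF2 pathway shares Nqo1 with AHR, and 16 of its 20 listed genes lay above 1 TPM, near the 70.6% over all genes. Ferritin genes Fth1 and Ftl1 led at 1173 ± 10.5 and 616 ± 37.0 TPM, and the peroxiredoxin gene Prdx1 had 322 ± 7.86 TPM. In replicate 2, 2 genes passed as higher (Mafk by 0.34 and Ftl1 by 0.22) and 3 as lower. Srxn1, a sulfiredoxin gene, fell by 2.03 ± 0.26, and Nfe2l2, which encodes NRF2, fell by 0.23 ± 0.08, a call lost with DESeq2 (adjusted p = 0.0658, the highest over 8 alternatives). Me1, malic enzyme, rested on 15, 3, 25 and 21 counts, a replicate 2 to others ratio of 0.139 (95% counting interval 0.0279 to 0.427), and its call was lost with DESeq2 (adjusted p = 0.0745). Over all genes, 11.7% were called higher and 10.9% lower in replicate 2, so the shares of this list are near the background. The list's median was 0.03, and Nqo1 did not pass.

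The genes whose pattern over the 4 libraries was most like that of Ahr were taken from 9512 protein-coding genes with a mean of at least 5 TPM, by Euclidean distance between centred log2(TPM + 0.1) values. They were Arl2 (distance 0.0278), Tyw5 (0.0337), Armc5 (0.0374), Btrc (0.0376) and Synj2 (0.0445), against a median distance of 0.281. Arl2, for example, stood at 17.8, 14.9, 16.2 and 19.3 TPM, with the same order of libraries as Ahr. Arnt ranked 659 at a distance of 0.162. Over 4 libraries this ranking is a description. Among the members, Cyp1a1 and Tiparp were the pair farthest apart, at a distance of 2.01.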

How the data were processed

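RNA-seq libraries of 4 Th17 samples were analysed as 1 group, with replicate numbers from the labels. Fragments of reverse-stranded pairs (strand option 2) were assigned to GENCODE vM13 genes by the authors with featureCounts 1.4.6-p4, per the file headers. The deposited values are raw counts, and the gene lengths are summed exon bases. The build is mm10 per the labels. The recorded command sets no option to count multi-mapped reads. The labels name the assay total RNA-seq, but the library protocol they link is titled for poly(A)+ RNA.

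From counts and lengths, TPM was calculated with an equal sum in every library. Symbols matched 50376 of 50600 identifiers. Genes with at least 10 summed counts entered edgeR 4.0.16 quasi-likelihood fits (R 4.3.3, TMM, robust prior), 1 library against 3, and an intercept-only fit of the level against 1 TPM whose F was formed from deviances. P-values were adjusted by Benjamini-Hochberg over all 17337 genes. Each SE given with an edgeR value is the absolute log2 value divided by the square root of F. DESeq2 1.42.0 was an alternative. Order was tested on log2(TPM + 0.1). The scripts were tested on simulated data. Counting intervals are exact Poisson at 95%, and ratio intervals are exact binomial; reads without molecular identifiers are not independent molecules, so both cover counting error only.

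The members, the 8 pathway lists and the marker lists were chosen with earlier results of these data known. Named genes are all members, the 3 most abundant of each pathway list, up to 6 per list that passed in replicate 2, genes at 0 counts, and the 5 nearest to Ahr. The result of 1 list gene is not reported here; counts over lists include it.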

Additional observations from a re-analysis of the deposited data

Results flagged for a closer look

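Each library was looked at for values far from the other 3 of its gene, judged by the gap to the nearest library over the whole range (Dixon's 95% limit). Of 52 genes examined, members and named list genes together, 9 had such a value, and all 9 values belonged to replicate 2. Many of the list genes were named because they passed in replicate 2, so the choice of genes favours that library and the count says nothing about it. Chance alone marks about 1 in 20 groups, and genes of the same library are not independent.

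Cyp1a1 was the 1 member among them, with 3.57 TPM in replicate 2 against 1.22 to 1.4 TPM elsewhere. Values of replicate 2 that lay above the other libraries were Hif1a at 423 TPM, Ncoa3 at 69.6 TPM, Mafk at 56.0 TPM and Arnt2 at 1.62 TPM. Those that lay below were Slc3a2 at 178 TPM, Ccr6 at 51.5 TPM, Nfe2l2 at 36.7 TPM and Slc36a4 at 18.8 TPM. Tiparp, at 19.4 TPM in replicate 2, was not marked, because replicates 1, 3 and 4 were themselves spread from 33.2 to 40.0 TPM.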

How the results depend on the processing

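No paired analysis was possible because the 4 libraries form 1 group. The calls of Cyp1a1 and Tiparp in replicate 2 held under all 8 alternatives, with log2 changes of 1.47 to 1.58 and −0.94 to −0.80. With the longest annotated transcript as the length, an alternative chosen after seeing the data, 0 members lay below 1 TPM; the median level of all genes moved by −0.30 on the log2 scale. Leaving out 1 replicate at a time gave 0 to 1 members called in replicate 1, and 0 to 68, 0 to 108 and 0 to 9 genes called in replicates 1, 3 and 4, the highest without replicate 2 each time. DESeq2 called 2, 15 and 3 genes there, and fitting with no filter called 17 in replicate 3. In replicate 2 the chaperone list had 2 calls with total counts and with at least 100 summed counts, and 1 to 2 with a replicate left out. With DESeq2 the tryptophan and NRF2 lists had 3 calls each. The xenobiotic list had 1 gene above 1 TPM with no filter, and 1 to 2 with a replicate left out. Some changes turned sign with a replicate left out. Most of these were near 0, but Cyp1a1 in replicate 3 was at −0.56 over all libraries and turned sign only without replicate 2. Over these fits Tiparp in replicate 4 ran from −0.24 to 0.19, Cyp1b1 in replicate 3 from −0.086 to 0.40, Cyp1a1 in replicate 3 from −0.83 to 0.18 and Arnt over Tiparp from −0.062 to 0.27. Ahrr in replicate 1 ran from −0.12 to 0.12. In replicate 2, Slc7a5 ran from −0.036 to 0.017 and Ddb1 from −0.0012 to 0.013, with −0.015 for Ddb1 by total counts. In CPM, which ignores length, Nqo1 over Cyp1a1 was −0.21 and Cyp1a1 over Ahrr −0.41. The cause was not tested, apart from the change of length. Nqo1, Ahrr and Cyp1a1 rest on 35 to 114 counts per library, which limits what their changes can show.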
